A study of Rattus norvegicus with 24 samples.

Results

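The genes described here are 120 Ensembl gene IDs whose level in the dorsal raphe was lowest in the libraries with the later library numbers of each line. They were chosen from measured values. For each gene, d was the mean of log2(CPM + 1) over the 5 later dorsal raphe libraries minus that over the 7 earlier ones, where CPM is the gene's count divided by the library's total and scaled to 1000000. Genes needed a mean of at least 5 CPM in the earlier libraries and a pooled ratio of dorsal raphe to amygdala CPM of no more than 8 in either direction. After 3 set IDs and the rows of the count table past row 32000 were left out, 11235 of 32662 IDs met these limits, and the 120 with the smallest d were taken. All comparisons below with "the 11235 genes" refer to this set, which includes the 120.

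The libraries were poly-A RNA of brain tissue from 60 day old rats of a High Responder and a Low Responder line, bred for opposite responses to novelty. There were 6 libraries for each line in the Amygdala and 6 for each line in the Dorsal Raphe, 24 in all, and no treatment was named for any group. The later dorsal raphe libraries were high-responder 4, 5 and 6 and low-responder 5 and 6, and the earlier ones were high-responder 1 to 3 and low-responder 1 to 4. In the amygdala, libraries 5 and 6 of each line were the later ones. "Later" refers to the library number alone. In each line, the later libraries of both regions had higher numbers than all earlier libraries of that line. Later low-responder libraries had lower numbers than earlier high-responder ones, so the later libraries do not form a single block of numbers. No label says what the numbers stand for (an extraction, a library preparation or a sequencing day), nor how many animals gave the libraries.

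The dorsal raphe is a thin midline nucleus in the periaqueductal grey of the midbrain and holds many of the serotonin neurons that project to the forebrain, the amygdala among their targets. The amygdala is a group of forebrain nuclei of mainly glutamate and GABA neurons. A tissue sample of either region also holds astrocytes, oligodendrocytes, microglia and blood vessel cells, and neighbouring tissue can be included where a nucleus is small. In such bulk samples, fewer cells of a type and less RNA per cell cannot be told apart. The count tables give Ensembl IDs without symbols and 0 of the 32662 IDs matched the reference gene table used here, so the 120 genes are described by ID and by their measured behaviour. For the same reason the labelled regions were not checked against marker genes, and no sequence is printed.

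Library totals were 9232983 to 20194601 counts, and all 120 genes were detected in all 24 libraries. A single gene had 28 to 4616 counts in an earlier dorsal raphe library, 4 to 1925 in a later one and 4 to 4656 in an amygdala library, with medians of 325, 83 and 286. Under 10 counts were found for 10 of 600 later dorsal raphe values and 4 of 1440 amygdala values. The later values at the low end therefore carry the largest counting error. No molecular identifiers were named, so a count is not a count of independent molecules.

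The gene with the smallest d, ENSRNOG00000009265, shows the pattern. In the earlier dorsal raphe libraries it stood at 23.5, 49.0 and 30.5 CPM in high-responder libraries 1 to 3 and at 44.6, 15.8, 48.9 and 51.1 CPM in low-responder libraries 1 to 4. In the later ones it stood at 3.66, 4.66 and 17.5 CPM in high-responder libraries 4 to 6 and at 1.38 and 8.78 CPM in low-responder libraries 5 and 6. The classes overlapped, because high-responder library 6 of the later class lay above low-responder library 2 of the earlier class. The mean was 37.7 ± 14.2 CPM in earlier and 7.20 ± 6.36 CPM in later libraries (SD, n = 7 and 5), and d was -2.47. In the amygdala the lowest, median and highest values were 9.87, 21.1 and 28.5 CPM in high-responder rats and 13.6, 21.6 and 28.5 CPM in low-responder rats, so the amygdala levels lay mostly between the earlier and the later dorsal raphe levels.

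The gene with the second smallest d, ENSRNOG00000003680, ordered the libraries in a like way. It stood at 26.5, 43.8 and 29.8 CPM in the earlier high-responder libraries and at 34.6, 11.99, 45.4 and 40.9 CPM in the earlier low-responder ones. The later values were 2.71, 4.01 and 16.7 CPM in high-responder rats and 1.76 and 8.78 CPM in low-responder rats. Again low-responder library 2 was the lowest of the earlier class and high-responder library 6 the highest of the later class, and the classes overlapped. The earlier mean was 33.3 ± 11.8 CPM and the later mean 6.80 ± 6.17 CPM (SD, n = 7 and 5), with d at -2.37. In the amygdala its lowest, median and highest values were 17.7, 29.9 and 41.3 CPM in high-responder rats and 23.0, 29.5 and 36.1 CPM in low-responder rats, close to its earlier dorsal raphe level.

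Over the 120 genes, d ran from -2.47 to -1.45 with a median of -1.66, against a median of -0.05 and quartiles of -0.29 and 0.16 over the 11235 genes. The mean CPM was 2.15 to 5.47 times higher in earlier than in later libraries, with quartiles of 2.96 and 3.61. The shared limit on d narrows this range. These values chose the genes and are a description only. The last 3 genes inside the limit had d values of -1.4520, -1.4489 and -1.4475 and the first 3 outside had -1.4469, -1.4434 and -1.4431, so the limit does not mark a gap. Among the chosen genes the median d differed little by level, but all of them lie past the same limit, which holds these medians close together. The median d was -1.66 for the 9 genes with an earlier mean of 5 to 10 CPM, -1.64 for the 49 with 10 to 25 CPM, -1.69 for the 34 with 25 to 50 CPM, -1.70 for the 20 with 50 to 100 CPM and -1.60 for the 8 above 100 CPM.

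With edgeR's quasi-likelihood test on line and library class, 119 of the 120 genes passed an adjusted p of 0.05 as lower in later libraries, where 23.8% of all 14390 genes tested did so. The rule used this contrast, so nothing follows from the count. The exception, ENSRNOG00000021084, had a fitted difference of -1.18 (edgeR adjusted p = 0.0765), and it is taken up again below because it also went apart in the amygdala.

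The fall was graded and did not follow the library class exactly. The summed level of the 120 genes was 785 CPM in low-responder dorsal raphe library 5, 977 CPM in high-responder library 4 and 1164 CPM in high-responder library 5. It was 2033 CPM in low-responder library 6 and 3071 CPM in high-responder library 6, both labelled later as well. Among the earlier libraries low-responder library 2 stood at 2730 CPM, and the others at 4369, 5967 and 4549 CPM (high-responder 1 to 3) and at 5398, 5874 and 5628 CPM (low-responder 1, 3 and 4). The dorsal raphe libraries thus formed 3 very low, 3 intermediate and 6 high values, with 1 earlier library among the intermediate ones. By class the sum was 4930.8 ± 1152.8 CPM in earlier and 1605.9 ± 947.9 CPM in later libraries (SD, n = 7 and 5).

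**Figure D1:**
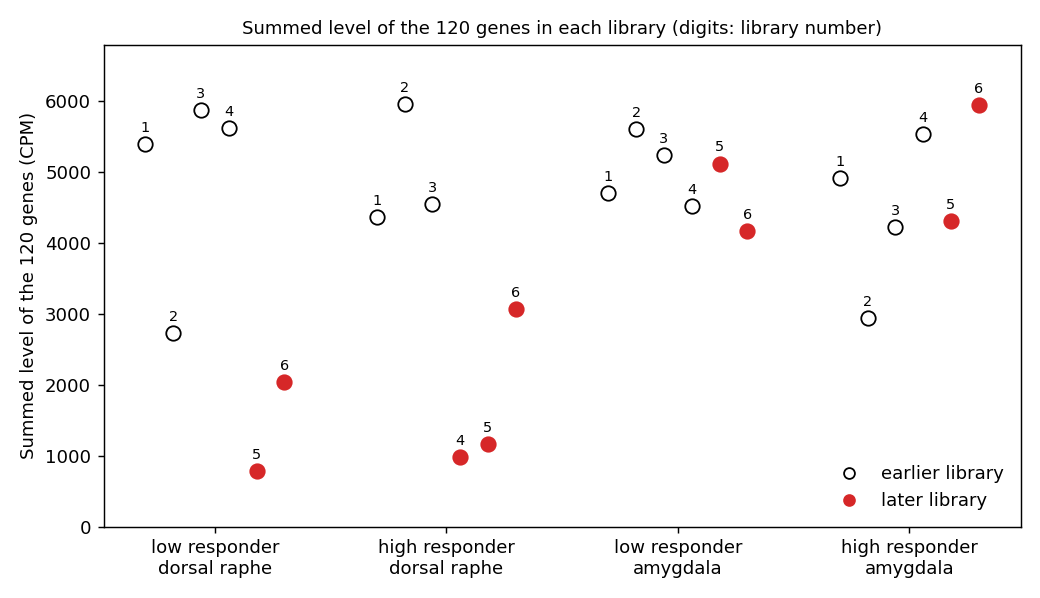
Summed level of the 120 genes (CPM, linear axis from 0) in each of the 24 libraries, by line and region; each point is a library, its digit is the library number, and filled points are later libraries. Low-responder dorsal raphe library 2 (2730 CPM) lies below the later high-responder library 6 (3071 CPM), and the 12 amygdala libraries lie between 2945 and 5946 CPM with later and earlier ones mixed.

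Gene by gene the same order was seen. Low-responder library 5 was the lowest of the 12 dorsal raphe libraries for 93 of the 120 genes (36.5% of the 11235 genes). High-responder library 4 was the lowest for 23 (8.54% of the 11235) and high-responder library 5 for 4 (4.95%). For high-responder library 5 that is 3.33% of the 120 genes, below the share over the 11235. High-responder library 6 was the highest of the 5 later libraries for 118 genes (41.66% of the 11235). All 5 later libraries lay below all 7 earlier ones for 23 of the 120 genes, against 6.07% of the 11235 genes. Without low-responder library 2 they did so for 113 genes (18.7% of the 11235), and without high-responder library 6 for 117 (21.0%). Those 2 libraries therefore account for nearly all of the overlap. Within high-responder rats the 3 later libraries lay below the 3 earlier ones for 113 genes (27.0%), and within low-responder rats the 2 later lay below the 4 earlier ones for 118 (28.2%). All of these counts rest on the values that chose the genes.

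The share of counts taken by the rows of the count table past row 32000, from which no member was taken, moved with the summed level. It was 15.99% in low-responder dorsal raphe library 5, 11.68% and 12.20% in high-responder libraries 4 and 5, and 10.17% and 9.41% in low-responder and high-responder library 6. It was 9.68% in low-responder library 2 and 7.81% to 8.996% in the other 6 earlier libraries. The libraries with the lowest levels of the 120 genes thus had the highest share of these rows. With totals that leave these rows out, the median d was -1.63 in place of -1.66. The part of this share in the result was not tested.

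**Figure D2:**
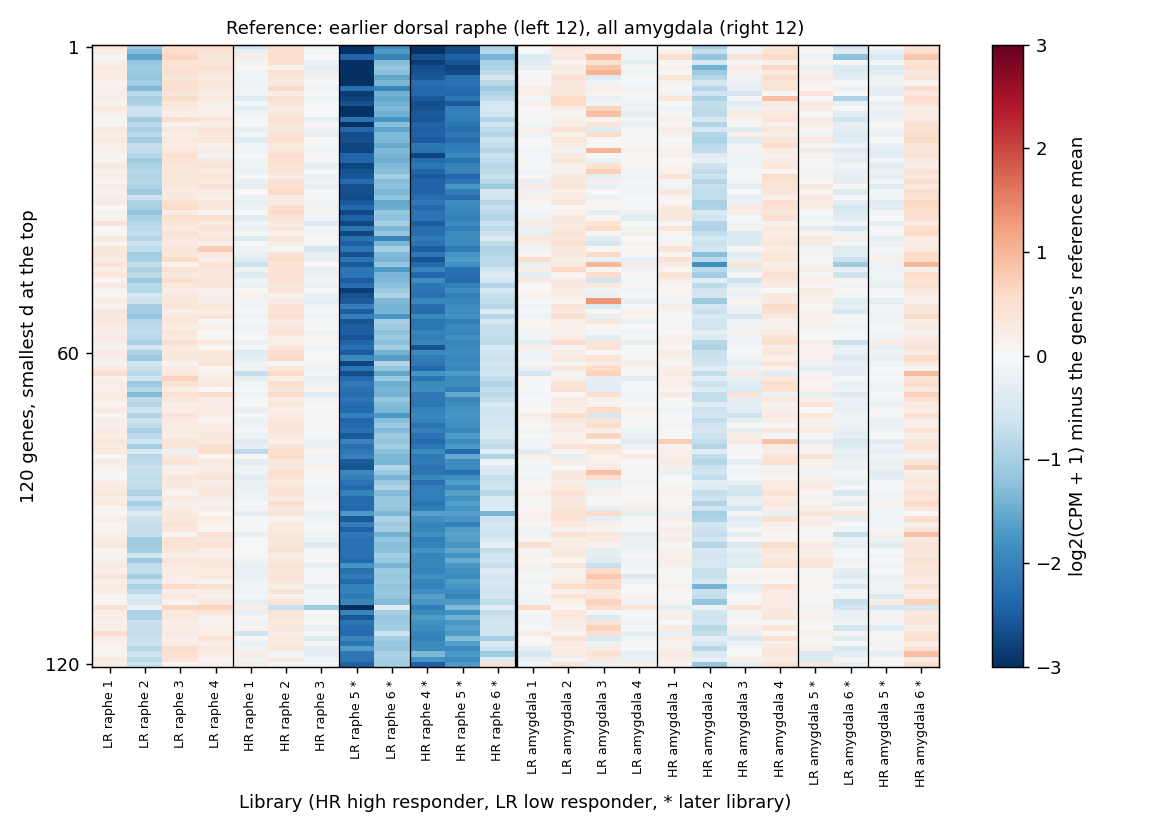
The 120 genes (rows, smallest d at the top) in the 24 libraries (columns); colour is log2(CPM + 1) minus the gene's mean over the 7 earlier dorsal raphe libraries (left 12 columns) or over the 12 amygdala libraries (right 12 columns), and asterisks mark later libraries. Whole columns share a colour: low-responder dorsal raphe library 2 and high-responder amygdala library 2 are low for all 120 genes, and in low-responder amygdala library 3 the genes part from each other.

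The differences among the 7 earlier dorsal raphe libraries and among the 12 amygdala libraries were not used to rank the genes. In the earlier dorsal raphe libraries, low-responder library 2 was the lowest for 118 of the 120 genes, against 32.9% of the 11235. All 120 genes were below the mean of the other 6 libraries there (56.0% of the 11235), with a median difference of -0.94 on the log2(CPM + 1) scale and quartiles of -1.15 and -0.80. The median over the 11235 genes in that library was -0.04. High-responder libraries 1 and 3 were slightly low, with medians of -0.15 and -0.09. There 106 and 98 of the 120 genes lay below the mean of the others (51.13% and 41.66% of the 11235). High-responder library 2 and low-responder libraries 1, 3 and 4 were high, with medians of 0.41, 0.21, 0.36 and 0.30.

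The amygdala libraries took part in the pattern as well, though the region entered the rule only through the limit on the ratio. High-responder amygdala library 2 was the lowest of 12 for 104 of the 120 genes, against 20.1% of the 11235. All 120 were below the mean of the other 11 libraries there (55.4% of the 11235), by a median of -0.73 with quartiles of -0.90 and -0.60, and the median over the 11235 genes was -0.03. Its summed level was 2945 CPM, against 4226 to 5946 CPM in the other 5 high-responder amygdala libraries and 4164 to 5611 CPM in the low-responder ones. Its share of counts in the rows past row 32000, 9.46%, was the highest of the 12 amygdala libraries, the other values being 3.004% to 8.42%. This library is an earlier one, as is low-responder dorsal raphe library 2, while the 3 lowest dorsal raphe libraries are later ones.

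At the other end, high-responder amygdala library 6 had a median of 0.39 above the other 11, high-responder library 4 of 0.30 and low-responder library 2 of 0.28. Their shares of counts past row 32000 were 7.36%, 7.38% and 7.48%. The share did not order the amygdala libraries throughout. High-responder library 1 had the second highest share of the 12, 8.42%, with a median of 0.10 above the other libraries. Low-responder amygdala library 6 was low, at a median of -0.25. The spread between libraries was wider for the 120 genes than for most others. The median SD of log2(CPM + 1) was 0.336 over the 12 amygdala libraries against 0.175 for the 11235 genes, and 119 of the 120 lay above that 0.175. In the 7 earlier dorsal raphe libraries it was 0.434 against 0.131, and in the 5 later ones 0.731 against 0.168.

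**Figure D3:**
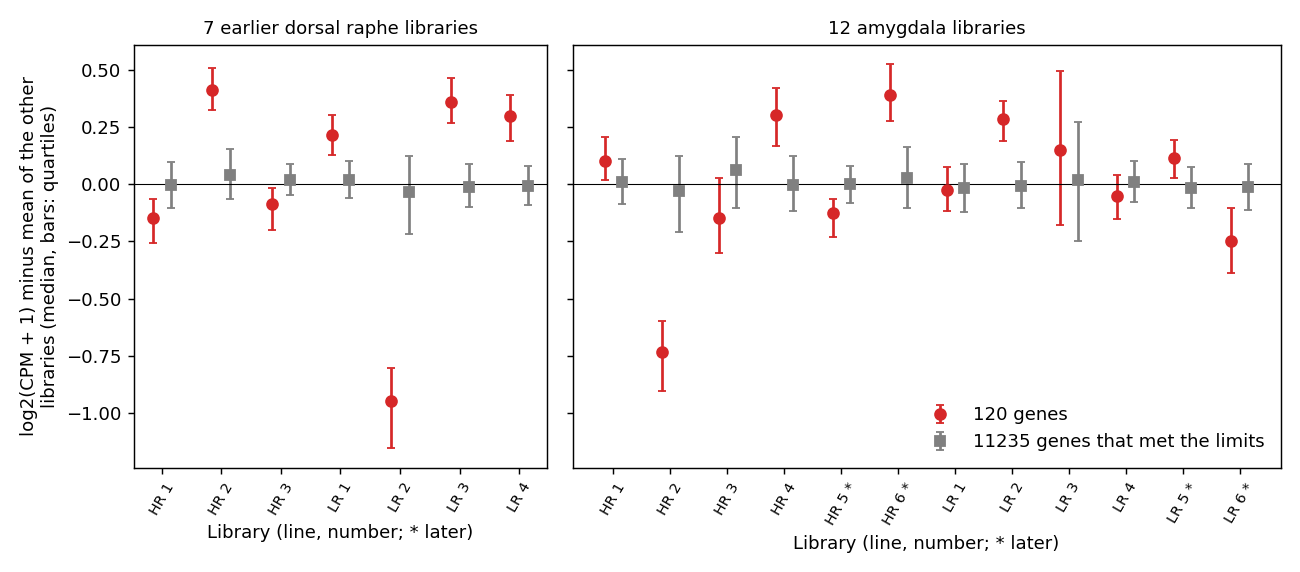
Difference of each library from the mean of the other libraries of its panel, on the log2(CPM + 1) scale, for the 7 earlier dorsal raphe libraries (left) and the 12 amygdala libraries (right); circles are medians of the 120 genes, squares those of the 11235 genes, and bars span the quartiles. The 120 genes lie lowest in low-responder dorsal raphe library 2 (median -0.94) and high-responder amygdala library 2 (median -0.73), while the medians of the 11235 genes stay near 0.

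Most of the 120 genes rose and fell together from library to library. After subtraction of each line's mean, the median Pearson correlation of a gene with the sum of the other 119 over the 12 amygdala libraries was 0.862, and 119 of the 120 genes were above 0.5. For the other 11115 genes the median correlation with the same sum was 0.017, and 20.85% were above 0.5. Over the 7 earlier dorsal raphe libraries the median was 0.981, with 119 genes above 0.5. For the other genes it was 0.095, with 34.9% above 0.5. Without high-responder amygdala library 2 the amygdala median was 0.763, with 108 genes above 0.5 (11.8% of the other genes). Without low-responder dorsal raphe library 2 the earlier dorsal raphe median was 0.926, with 113 genes above 0.5 (28.9% of the other genes). There 116 of the 120 genes had a positive correlation, and the lowest was -0.504. These correlations are descriptions over few libraries, and all genes of a library share its depth and its composition.

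The gene that followed the others least was again ENSRNOG00000021084, singled out after its values were seen, with a correlation of 0.08 in the amygdala. In the later amygdala libraries it stood at 12.02 and 12.19 CPM (high-responder 5 and 6) and at 15.8 and 11.8 CPM (low-responder 5 and 6). In the earlier ones it stood at 13.7, 15.6, 23.9 and 20.9 CPM (high-responder 1 to 4) and at 26.9, 18.4, 25.2 and 23.8 CPM (low-responder 1 to 4), so later libraries tended to be lower but the classes overlapped. In the dorsal raphe it reached 11.9 CPM in the later high-responder library 6 and fell to 6.77 CPM in the earlier high-responder library 3. Its difference between later and earlier amygdala libraries was -0.69 (SE 0.16) and did not pass (edgeR adjusted p = 0.738).

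The genes moved together least in 1 amygdala library. In low-responder amygdala library 3 the differences of the 120 genes from the other 11 libraries had quartiles of -0.18 and 0.49, an interquartile range of 0.671, where the other 11 amygdala libraries had ranges of 0.166 to 0.326. The 11235 genes were also widest there, at 0.519. In high-responder amygdala library 3 the range was 0.326, the widest of the other 11, and the median -0.15. Of the 120 genes, 32 were above the other libraries in both libraries numbered 3, 39 were below in both, 46 were above in the low-responder one alone and 3 in the high-responder one alone. These 2 libraries had the lowest shares of counts past row 32000 of all 24, 4.399% and 3.004%, and the part of that share in these values was not tested.

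Set against the amygdala, the 120 genes differed in both directions in earlier dorsal raphe libraries and were mostly lower in later ones. Their summed level was 4771.5 ± 815.6 CPM over the 12 amygdala libraries (SD). The mean log2(CPM + 1) was higher in the amygdala than in earlier dorsal raphe libraries for 51 of the 120 genes (46.59% of the 11235) and higher than in later ones for 116 (51.11%). The median difference, amygdala minus dorsal raphe, was -0.13 for earlier libraries and 1.58 for later ones. For 70 of the 120 genes the earlier mean lay within the range of the 12 amygdala libraries (49.86% of the 11235), for 36 above it (28.17%) and for 14 below it (21.97%), so the share above is near that of all genes. The later mean lay below the lowest amygdala library for 100 of the 120 genes, against 31.1% of the 11235, and all 5 later libraries did so for 47 (18.7%). The dorsal raphe values chose the genes, so these comparisons are not tested.

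**Figure D4:**
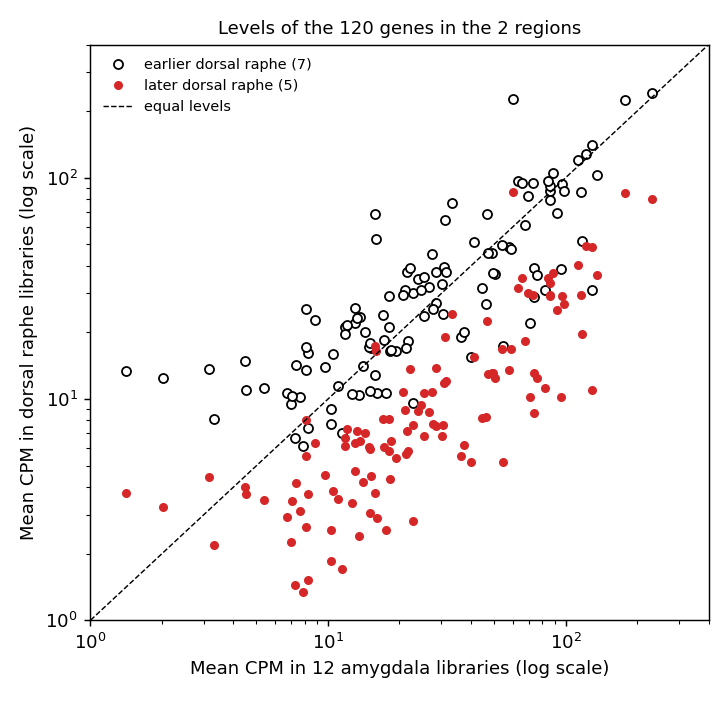
Mean CPM of each of the 120 genes in the dorsal raphe against its mean in the 12 amygdala libraries, both on log scales; open points are the 7 earlier and filled points the 5 later dorsal raphe libraries, and the dashed line marks equal levels. Open points scatter about the line, with 51 of 120 genes higher in the amygdala on the log2(CPM + 1) scale, and filled points lie mostly below it, with 116 of 120 higher in the amygdala.

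A shared fall in the dorsal raphe did not require a shared preference for a region. The 4 genes at the ends of the amygdala minus earlier dorsal raphe difference, picked from these values, show the range. ENSRNOG00000053402 stood at 13.3 ± 4.98 CPM in earlier dorsal raphe, 3.77 ± 2.56 CPM in later dorsal raphe and 1.41 ± 0.870 CPM in amygdala libraries (SD, n = 7, 5 and 12). ENSRNOG00000002862 stood at 12.4 ± 4.99, 3.25 ± 1.79 and 2.02 ± 0.839 CPM in the same order. Both were thus higher in either class of dorsal raphe libraries than in the amygdala. ENSRNOG00000015603 had 31.0 ± 6.92 CPM in earlier dorsal raphe, 10.97 ± 6.56 CPM in later dorsal raphe and 129.3 ± 19.96 CPM in amygdala libraries. ENSRNOG00000032328, the last gene inside the limit, had 21.96 ± 3.92, 10.2 ± 10.7 and 71.1 ± 18.4 CPM. Its later values were uneven, from 3.13 CPM to 28.8 CPM, the highest being above its highest earlier value of 25.3 CPM.

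Whether the 120 genes differ between the bred lines was asked in each region. All low-responder libraries, in both regions, had lower library numbers than all high-responder ones. Line and library number therefore cannot be told apart in the line contrasts. In the dorsal raphe, with library class in the fit, 0 of the 120 genes passed the threshold with edgeR (0.0834% of 14390 genes tested), 0 had an unadjusted p under 0.05 (8.54% of all genes) and DESeq2 called 0. The median difference, high minus low responder, was 0.07 on the log2 scale with quartiles of 0.02 and 0.15, against -0.01 over all genes. It was above 0 for 91 of the 120 genes and for 48.2% of all genes. Since the genes move together, such a count is close to a single observation and not 120. The median SE of a gene was 0.311, which gives a 95% interval of about 0.610 on either side. Line differences within that range cannot be told from 0 here, and larger ones could also miss the threshold on the adjusted p. For ENSRNOG00000009265 the difference was 0.05 (SE 0.45) and for ENSRNOG00000003680 it was 0.14 (SE 0.45), with edgeR adjusted p values of 0.987 and 0.964.

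The sign of the dorsal raphe line difference hung on the class term and on a few libraries. Without the class term the median was -0.21 and 118 of 120 genes were lower in high-responder rats. There 3 of 6 high-responder but 2 of 6 low-responder libraries are later. The rule chose genes low in later libraries, so this split favours lower high-responder values in advance and nothing follows from the count. With the classes apart, the median was -0.02 in the earlier libraries alone and 0.28 in the later ones alone. With the class term in the fit, the median was -0.14 without high-responder library 6, -0.03 without low-responder library 2 and -0.07 without low-responder library 5. Without high-responder library 6 and low-responder library 2 together, the median was -0.27 and all 120 genes were lower in high-responder rats. These libraries were picked after the data were seen, as high in the later and low in the earlier class. Leaving out both moves the difference downward by itself, so nothing follows from that direction or count. With edgeR 0 genes of the 120 passed in each of these fits.

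In the amygdala, 0 of the 120 genes passed with edgeR between the lines (0.0210% of 14265 genes tested) and DESeq2 called 0. An unadjusted p under 0.05 was found for 2, both lower in high-responder rats (8.34% of all genes). The median difference was -0.06 with quartiles of -0.15 and 0.04, against 0.00 over all genes, and 81 of the 120 genes were lower in high-responder rats. Above 0 were 39 of the 120 genes, against 49.4% of all genes. The median SE was 0.176, for an interval of about 0.346 on either side. Without high-responder amygdala library 2, the library low for all 120 genes, the median was 0.03. It was -0.20, with 19 genes above 0, in the earlier amygdala libraries alone and 0.16, with 95 above 0, in the later ones alone, and 0 of the 120 genes passed in either. The earlier libraries include high-responder library 2. As the genes move together, each of these counts is again close to a single observation. The summed level was 4647.3 ± 1072.0 CPM over the 6 high-responder and 4895.7 ± 526.6 CPM over the 6 low-responder libraries (SD), with overlapping values.

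The line difference in the amygdala minus that in the dorsal raphe was tested on all 24 libraries with class terms for each region. Of the 120 genes 0 passed with edgeR (0.00668% of 14977 genes tested), 0 had an unadjusted p under 0.05 (4.30% of all genes) and DESeq2 called 0. The median was -0.16 with quartiles of -0.25 and -0.03, and its interval for a single gene, at a median SE of 0.381, was about 0.747 on either side. Another fit left out high-responder amygdala library 2, high-responder dorsal raphe library 6 and low-responder dorsal raphe library 2 together. They were picked after the values of the 120 genes were seen, and leaving out each of them moves this difference upward. The median was then 0.32 and 117 genes were above 0, with 0 called and 14 at an unadjusted p under 0.05 (7.98% of all genes). The choice of libraries favoured that direction in advance, so nothing follows from it or from the counts.

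The same class contrast was asked of the amygdala, whose libraries did not set d. Between later and earlier amygdala libraries 0 of the 120 genes passed with edgeR (0% of 14265 genes tested) and DESeq2 called 0 of them. At an unadjusted p under 0.05 there was 1, ENSRNOG00000021084 (3.82% of all genes). The median difference was 0.02 with quartiles of -0.04 and 0.11, and 50 of the 120 genes were lower in later libraries. Above 0 were 70 of the 120 genes, against 48.6% of all genes. The median SE was 0.191, for an interval of about 0.373 on either side, which does not reach the median d of -1.66 seen in the dorsal raphe. The summed level was 4884.7 ± 824.0 CPM in the 4 later and 4714.9 ± 862.2 CPM in the 8 earlier amygdala libraries (SD). The difference between later and earlier libraries that defines these genes in the dorsal raphe was thus not found in the amygdala at a like size, although the genes moved together there too.

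Whether the later minus earlier difference in the dorsal raphe depended on the line was tested as an interaction. Each line alone had a d below 0 for all 120 genes (55.64% of the 11235 in high-responder and 58.14% in low-responder rats). The median d was -1.60 in high-responder and -1.78 in low-responder rats. The same values chose the genes, over both lines together, so a fall in each line was favoured in advance though not fixed. In the test of the difference between lines 0 of the 120 genes passed with edgeR (0% of 14390 genes tested), 0 had an unadjusted p under 0.05 (2.16% of all genes) and DESeq2 called 0. The median interaction was 0.32, a smaller fall in high-responder rats, and 115 genes were above 0 (55.8% of all genes). The median SE was 0.673, however, for an interval of about 1.32 on either side. The median interaction turned to -0.36 without high-responder library 6 and to -0.21 without low-responder library 5, and rose to 1.07 without low-responder library 6. With 3 and 2 later libraries in the lines, a difference in the fall of the size seen is not detectable.

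**Figure D5:**
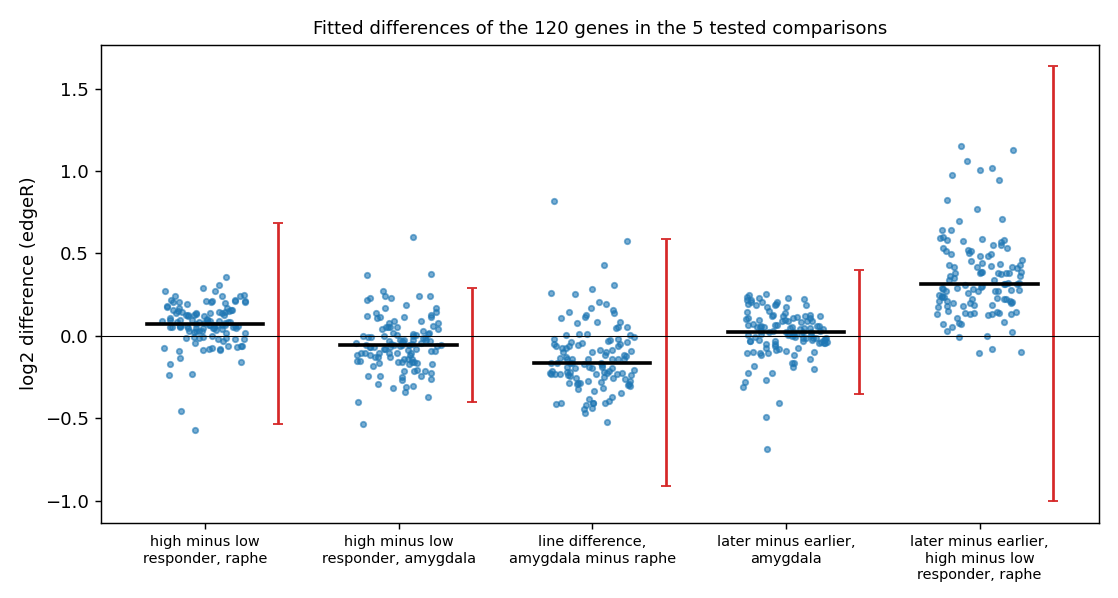
Fitted log2 differences (edgeR) of the 120 genes in the 5 tested comparisons; each point is a gene, the black bar is the median over genes and the red bar spans the 95% interval of a gene at the median SE, centred on it. The medians lie at 0.07, -0.06, -0.16, 0.02 and 0.32 from left to right, each within its red bar of 0, and 0 of the 120 genes passed in each comparison.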

How the data were processed

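Poly-A RNA was sequenced from 24 libraries of rat amygdala and dorsal raphe. Raw read counts per Ensembl gene ID were deposited, made by the authors with Trim Galore, STAR and genome build rn6 per the submitters' processing notes. Versions, counting program, annotation release and strand setting are not given in the sources used here, so overlapping, antisense or near-identical genes may share reads. Totals were 9232983 to 20194601 counts, and 0 rows named no gene. The members and lists were chosen with earlier results of these data known. Marker lists could not be applied, since 0 IDs matched symbols.

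Tests used edgeR 4.0.16 (filterByExpr, TMM, glmQLFit, glmQLFTest) in R 4.3.3 over all genes, with a threshold of 0.05 on the Benjamini-Hochberg adjusted p, and were checked on simulated data. SE is the log2 difference divided by the square root of F. The class term was added to the dorsal raphe line fit because the classes are unevenly split between the lines. P-values measure the spread between libraries, which may be technical. The closest pair of libraries within a group had a chi-square per degree of freedom of 3.46 over genes with 10 or more counts, so none was treated as a duplicate. Alternatives were RLE size factors, no count filter, DESeq2 1.42.0, other class terms, blocks and libraries left out. Named genes are the 2 smallest d and, where some passed a test, at most 2 in each direction; others are said to be picked after their values were seen. Python 3.11.15 was used for descriptions.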

Additional observations from a re-analysis of the deposited data

How the results depend on the processing

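In the 5 tested comparisons, the 101 alternative fits all called 0 of the 120 genes, those that left out 1 library and those with a replicate block included. The median log2 differences ranged with 1 library left out from -0.14 to 0.21 between lines in the dorsal raphe, -0.14 to 0.04 in the amygdala, -0.29 to 0.06 for the line by region test, -0.12 to 0.13 for later against earlier amygdala and -0.36 to 1.07 for the interaction of line and class, so no direction of these medians held throughout. Where 1 later low-responder library remains, it is assumed to vary like the others. With a replicate block the medians were 0.24 and -0.08 between lines in the dorsal raphe and amygdala, -0.36 for line by region, and 0.48 for the interaction of line and class, a fit added after the data were seen. The equal numbers were not shown to pair libraries: same-numbered deviations correlated from -0.741 to 0.806 between lines in the dorsal raphe and from -0.466 to 0.277 between regions in high-responder rats, and 3 of 24 comparisons of a library with the other group were highest for its own number. No paired analysis was possible for later against earlier amygdala libraries because the numbers set the class there.

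The list of 120 kept 108 to 117 genes with 1 dorsal raphe library left out, 119 with TMM factors (median d -1.60), 102 with a pseudocount of 0.1 and 75 with at least 20 CPM, which leaves fewer genes to rank. The median d stayed between -1.91 and -1.49 with 1 library left out. Over all genes, calls between lines in the dorsal raphe went from 12 to 26 with no filter, 85 with DESeq2, 7 with the block, 0 in the later libraries alone and 6 to 18 with 1 library left out. In the amygdala they went from 3 to 1 with RLE or no filter, 82 with DESeq2, 0 in earlier and 61 in later libraries alone, and 1 to 27 with 1 library left out, 27 being the count without high-responder library 2. DESeq2 called 2 genes, in place of 0 with edgeR, between later and earlier amygdala libraries and 2, in place of 1, for line by region, where leaving out high-responder amygdala library 2 gave 13. The interaction had 0 calls, or 6 without low-responder dorsal raphe library 6.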
